A study of Mus musculus with 4 samples.

Results

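Hub anchors are places in the genome where several chromatin loops of 1 library end at the same site. They were found in Micro-C loop lists of mouse granulosa cells by merging anchor intervals of a list that overlapped or lay within 10 kb of each other and counting the distinct loops at each merged anchor. A merged anchor with 4 or more loops was called a hub, and hubs of different libraries within 10 kb of each other formed 1 hub locus. This gave 650 hub loci among 13316 anchor loci of the 4 lists. Hubs were selected on their loop counts, so these counts are given as descriptions with no test. Micro-C maps contacts between nucleosomes across the nucleus, and a loop is a pair of sites with more contacts than their surroundings. The libraries came from granulosa cells collected by puncturing ovaries of mice aged 21 days. In the hCG group (replicates 1 and 2), mice received 5 IU of eCG and later 5 IU of hCG, and cells were collected 6 h after hCG. In the PMSG group (replicates 1 and 2), mice received 5 IU of eCG and no hCG, and collection was at 0 h. All 4 libraries thus came from eCG-primed mice, with the time on eCG given as 46 h in 1 label and as 44 h in another. The strain is not given in the sources used here, and punctured ovaries can release other cells beside granulosa cells. Loop lists hold no expression, so the labelled cell type was not checked against it here. Whether replicates 1 and 2 of a group are different mice is not stated in the labels, and the spread between them may be technical.

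Chromatin loops form largely where cohesin extrudes DNA until it meets the bound protein CTCF, and also where active promoters and enhancers contact each other. A site that ends many loops therefore contacts several distant sites, though in a population of cells these contacts need not occur at the same time. In the ovary, eCG, also called PMSG, acts like follicle-stimulating hormone and drives granulosa cells to proliferate and make oestradiol. hCG acts at the luteinizing hormone (LH) receptor and starts ovulation, in which granulosa cells raise cyclic AMP, release EGF-like ligands, remodel the follicle wall and turn into luteal cells. The comparison between groups asks which hubs were called after the ovulatory signal and which before it.

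Several of the hubs described here lie at genes with a known role in this transition, and their promoters are shown because the gene start lay inside the hub. A hub interval joins several bins, so a start inside it need not lie in the bin of each loop. Gja1 encodes connexin 43, the main gap junction protein between granulosa cells. Adamts1 encodes a protease that cleaves the matrix protein versican at ovulation, and Inhba encodes the subunit shared by activin A and inhibin A. Epgn encodes epigen, an EGF-like ligand, and Rgs2 encodes a regulator that limits G protein signalling. Gja1, Adamts1 and Inhba were at hubs in all 4 libraries, and Epgn and Rgs2 at hubs of both hCG libraries only. Each sequence runs 5′ to 3′ on the gene's strand from 250 bases before to 50 bases after a gene start in RefSeq (GRCm38.p6). The positions are chr10:56377050-56377349 (+) for Gja1, chr16:85803064-85803363 (−) for Adamts1 and chr13:16011601-16011900 (+) for Inhba. They are chr5:91027267-91027566 (+) for Epgn and chr1:144004100-144004399 (−) for Rgs2. Capitals mark matches on either strand to 5 motifs: the CTCF core CNAGNGGGC, the NR5A site CAAGGTCA, the cyclic AMP response element TGACGTCA, the AP-1 site TGANTCA and the cyclic AMP half-site TGACG, which is contained in the full element and was added after these promoters had been seen.
Gja1: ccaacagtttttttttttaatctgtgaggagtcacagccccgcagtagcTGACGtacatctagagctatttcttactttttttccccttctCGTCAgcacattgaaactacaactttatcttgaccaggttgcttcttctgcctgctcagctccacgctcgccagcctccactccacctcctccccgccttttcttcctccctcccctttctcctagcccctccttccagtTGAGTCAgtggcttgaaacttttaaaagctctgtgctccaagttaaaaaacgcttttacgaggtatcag
Adamts1: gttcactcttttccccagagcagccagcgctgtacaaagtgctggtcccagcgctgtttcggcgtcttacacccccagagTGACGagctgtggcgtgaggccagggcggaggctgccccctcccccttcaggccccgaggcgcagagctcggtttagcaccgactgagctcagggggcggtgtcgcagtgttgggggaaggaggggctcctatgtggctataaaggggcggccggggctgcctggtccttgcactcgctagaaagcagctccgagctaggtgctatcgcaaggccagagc
Inhba: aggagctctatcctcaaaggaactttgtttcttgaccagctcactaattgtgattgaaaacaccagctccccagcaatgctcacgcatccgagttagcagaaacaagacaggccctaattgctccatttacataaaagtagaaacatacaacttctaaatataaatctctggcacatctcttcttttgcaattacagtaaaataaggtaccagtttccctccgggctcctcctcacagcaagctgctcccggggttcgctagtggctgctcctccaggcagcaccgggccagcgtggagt
Epgn: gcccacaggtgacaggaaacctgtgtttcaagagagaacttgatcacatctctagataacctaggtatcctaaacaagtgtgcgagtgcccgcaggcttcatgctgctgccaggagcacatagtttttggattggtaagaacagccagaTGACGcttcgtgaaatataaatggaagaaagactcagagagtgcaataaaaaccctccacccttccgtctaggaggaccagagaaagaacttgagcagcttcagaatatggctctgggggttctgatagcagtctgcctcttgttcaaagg
Rgs2: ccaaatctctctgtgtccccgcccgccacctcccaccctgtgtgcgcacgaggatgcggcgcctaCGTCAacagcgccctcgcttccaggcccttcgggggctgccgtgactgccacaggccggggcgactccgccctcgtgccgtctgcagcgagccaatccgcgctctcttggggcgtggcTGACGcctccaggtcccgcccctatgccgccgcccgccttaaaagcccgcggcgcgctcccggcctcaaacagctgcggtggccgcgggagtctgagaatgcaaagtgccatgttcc

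Gja1 held 1 AP-1 match at -19 and half-sites at -201 and -159, counted from the gene start as base 0. Adamts1 held 1 half-site at -170, Epgn 1 at -101, and Rgs2 half-sites at -185 and -67. No match to these letters was found in the Inhba window. Over 505 RefSeq promoters of genes at hub loci, the full cyclic AMP element was found in 3.56%, against 2.26% of all 21045 promoters. The half-site was found in 27.5% of hub promoters, against 23.8% of all. AP-1 matches were found in 5.15% of hub promoters against 7.04% of all, the CTCF core in 7.52% against 8.65%, and the NR5A site in 1.58% against 1.29%. Hub promoters therefore held these letters at shares near those of all promoters, and a match is a description of the sequence and not a bound site. Promoters of chromosome 18 were not used here.

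The lists held 7664 and 7935 loops in the hCG libraries, against 8305 and 6533 in the PMSG libraries. These loops carried 311016 and 349717 contacts in the hCG libraries, against 393852 and 272470 in the PMSG libraries. Hubs numbered 277 and 289 in the hCG libraries, against 335 and 175 in the PMSG libraries. PMSG replicate 2 stood apart, with the fewest loops, contacts and hubs, and PMSG replicate 1 had the most of each. The number of hubs thus moved with the length of the list, so the counts were also taken from lists of equal length. Hubs were 2.65% and 2.72% of merged anchors in the hCG libraries, against 3.06% and 1.87% in the PMSG libraries. They took a larger share of loops, at 14.6% and 15.0% of loops in the hCG libraries, against 16.4% and 10.9% in the PMSG libraries. Most anchors ended a single loop, namely 6982 of 10450 and 6930 of 10637 in the hCG libraries, against 6953 of 10933 and 6586 of 9358 in the PMSG libraries. The highest count at 1 anchor was 10 and 9 loops in the hCG libraries, against 8 in each PMSG library.

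**Figure D1:**
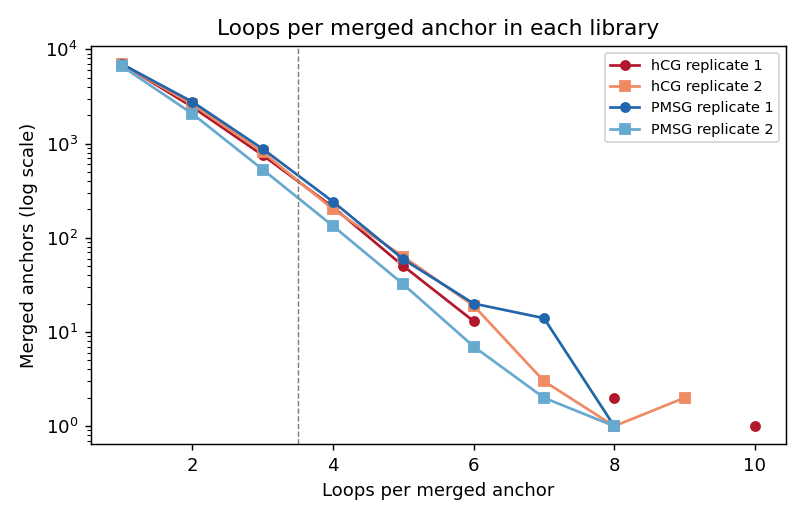
Number of merged anchors (log scale) by the number of loops they end, with 1 line per library and a dashed line at the hub threshold between 3 and 4 loops; loop numbers with no anchor are not drawn. Anchors became rarer with each added loop up to 6 loops in every library, and PMSG replicate 2 lay below the other libraries from 3 to 6 loops.

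Many hubs lay just past the threshold. Anchors with exactly 4 loops numbered 211 and 201 in the hCG libraries, against 241 and 133 in the PMSG libraries. Just below it, anchors with 3 loops numbered 751 and 809 in the hCG libraries, against 877 and 529 in the PMSG libraries. Hubs were wider than other anchors because merging joins neighbouring bins: their median width was 35 kb in both hCG libraries, against 35 and 40 kb in the PMSG libraries, and the median of all merged anchors was 10 kb in each library. A few hubs had under 4 distinct partner anchors, since several loops can join the same pair of merged anchors. Such hubs numbered 22 and 24 in the hCG libraries, against 40 and 15 in the PMSG libraries.

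Most hub loci were hubs in 1 library only. Of the 650 loci, 397 were hubs in 1 library, 127 in 2, 80 in 3 and 46 in all 4. The hubs found in a single library numbered 98 and 102 for the hCG libraries, against 149 and 48 for the PMSG libraries, in the same order as the hub totals. Hubs in both hCG libraries and neither PMSG library numbered 40, and hubs in both PMSG libraries and neither hCG library numbered 23. Another 64 loci were hubs in 1 library of each group, 49 in both hCG libraries and 1 PMSG library, and 31 in 1 hCG library and both PMSG libraries. With PMSG replicate 2 left out, 80 loci were hubs in every remaining library, 55 in both hCG libraries only and 172 in PMSG replicate 1 only. When each list was shortened to the same number of loops, 457 loci were hubs in any library, 22 in all 4, 27 in both hCG libraries only and 19 in both PMSG libraries only. With only loops at an FDR of at most 0.01 kept, 16 loci were hubs in both hCG libraries only and 16 in both PMSG libraries only.

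The group-specific hubs were rarely without loops in the other group. Of the 40 hubs of both hCG libraries only, 30 had 3 loops in at least 1 PMSG library, 10 had at most 2 in either, and 2 had none in both. Of the 23 hubs of both PMSG libraries only, 15 had 3 loops in at least 1 hCG library, 8 had at most 2 in either, and 1 had none in both. The lowest count in the 2 hub libraries exceeded the highest count in the other 2 by 1 loop at 28 of the 40 hCG loci and at 15 of the 23 PMSG loci. These classes therefore mostly record small differences in loop number at a fixed threshold.

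**Figure D2:**
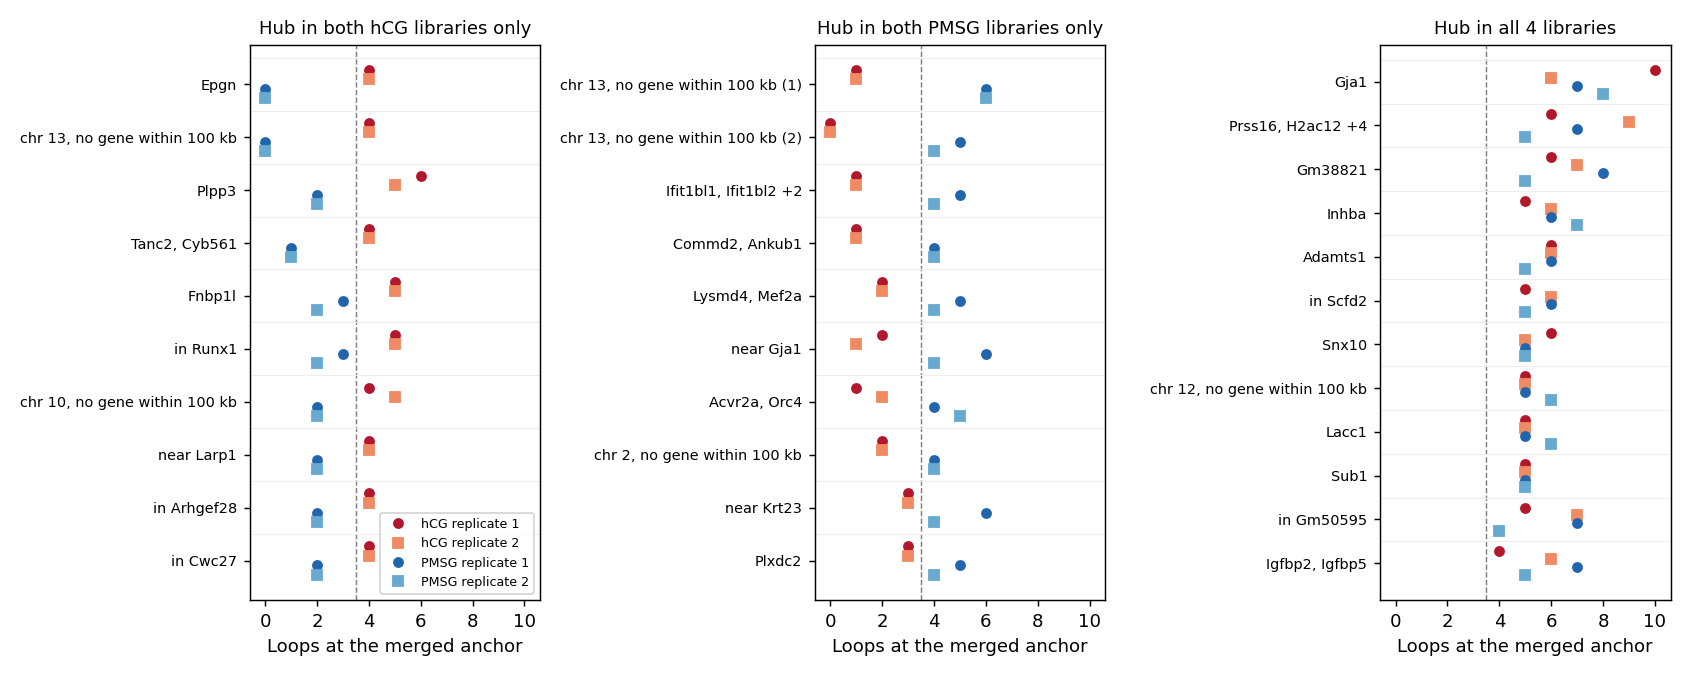
Loops at the merged anchor (x axis, number of loops) in each of the 4 libraries for the 10 hubs of both hCG libraries only and the 10 of both PMSG libraries only with the widest margin, and the 12 hubs of all 4 libraries with the highest lowest count; the dashed line is the hub threshold. Epgn and 1 gene-poor site on chromosome 13 had 4 loops in each hCG library and 0 in each PMSG library, and Gja1 had 31 loops in total over the libraries, the highest sum among the hubs of all 4 libraries shown.

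The hub with the highest lowest count in all 4 libraries lay at Gja1 (chr10:56325001-56400000). It had 10 and 6 loops in the hCG libraries, against 7 and 8 in the PMSG libraries, so the groups overlapped. The gene itself (chr10:56377300-56390419) lay inside the hub. Among its partners, 5 sites to the right were called in all 4 libraries, at median spans of 102.5, 630, 812.5, 940 and 1075 kb. All 5 lay in sequence with no gene end. The loop of about 812.5 kb had 13 and 14 contacts in 5 kb bins in the hCG libraries, against 17 and 16 in the PMSG libraries. These were 10.8 and 10.4 times the expected contacts around the pixel in the hCG libraries, against 8.92 and 11.7 times in the PMSG libraries. The high count in hCG replicate 1 came with 3 loops to the left, of 225, 550 and 1775 kb, of which only the one of 1775 kb was also called elsewhere, in PMSG replicate 2.

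Adamts1 (chr16:85793827-85803113) lay at a hub with close to the same count in every library. Its anchor (chr16:85800001-85830000) had 6 and 6 loops in the hCG libraries, against 6 and 5 in the PMSG libraries. The same 5 partners were called in all 4 libraries, at median spans of 487.5, 610, 835, 1072.5 and 1440 kb, all on one side. A 6th partner at 1575 kb, at the gene Ltn1, was called in both hCG libraries and in PMSG replicate 1. The loop of 1072.5 kb had 25 and 27 contacts in 10 kb bins in the hCG libraries, against 25 and 15 contacts in 5 kb bins in the PMSG libraries, so the bin size of a call differed between groups. Loops with both ends in the window chr16:85750001-87450000 numbered 12 in each hCG library, against 12 and 13 in the PMSG libraries. Adamts1 is known to be induced by the LH signal, and these 5 long loops of its hub were called both with and without hCG.

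Inhba (chr13:16004256-16031609) had a hub (chr13:15975001-16035000) of 5 and 6 loops in the hCG libraries, against 6 and 7 in the PMSG libraries. Partners called in all 4 libraries lay at median spans of 272.5, 445, 655 and 1440 kb, and none had a gene end. A partner at 750 kb was called in both hCG libraries only, and 1 at 312.5 kb in both PMSG libraries only. The region to the right of Inhba differed more than the hub itself, but it holds hubs, described below, that were selected for more loops in PMSG. In the window chr13:15950001-17700000, loops with neither end at the Inhba hub numbered 1 and 1 in the hCG libraries, against 10 and 7 in the PMSG libraries. Most of these PMSG loops ended at those selected hubs, so this difference is not independent of the selection. The window's contacts summed over called loops were 396 and 393 in the hCG libraries, against 521 and 436 in the PMSG libraries. These sums cover different numbers of loops in bins of different sizes and are not scaled to depth. They therefore do not compare contact frequency between groups.

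**Figure D3:**
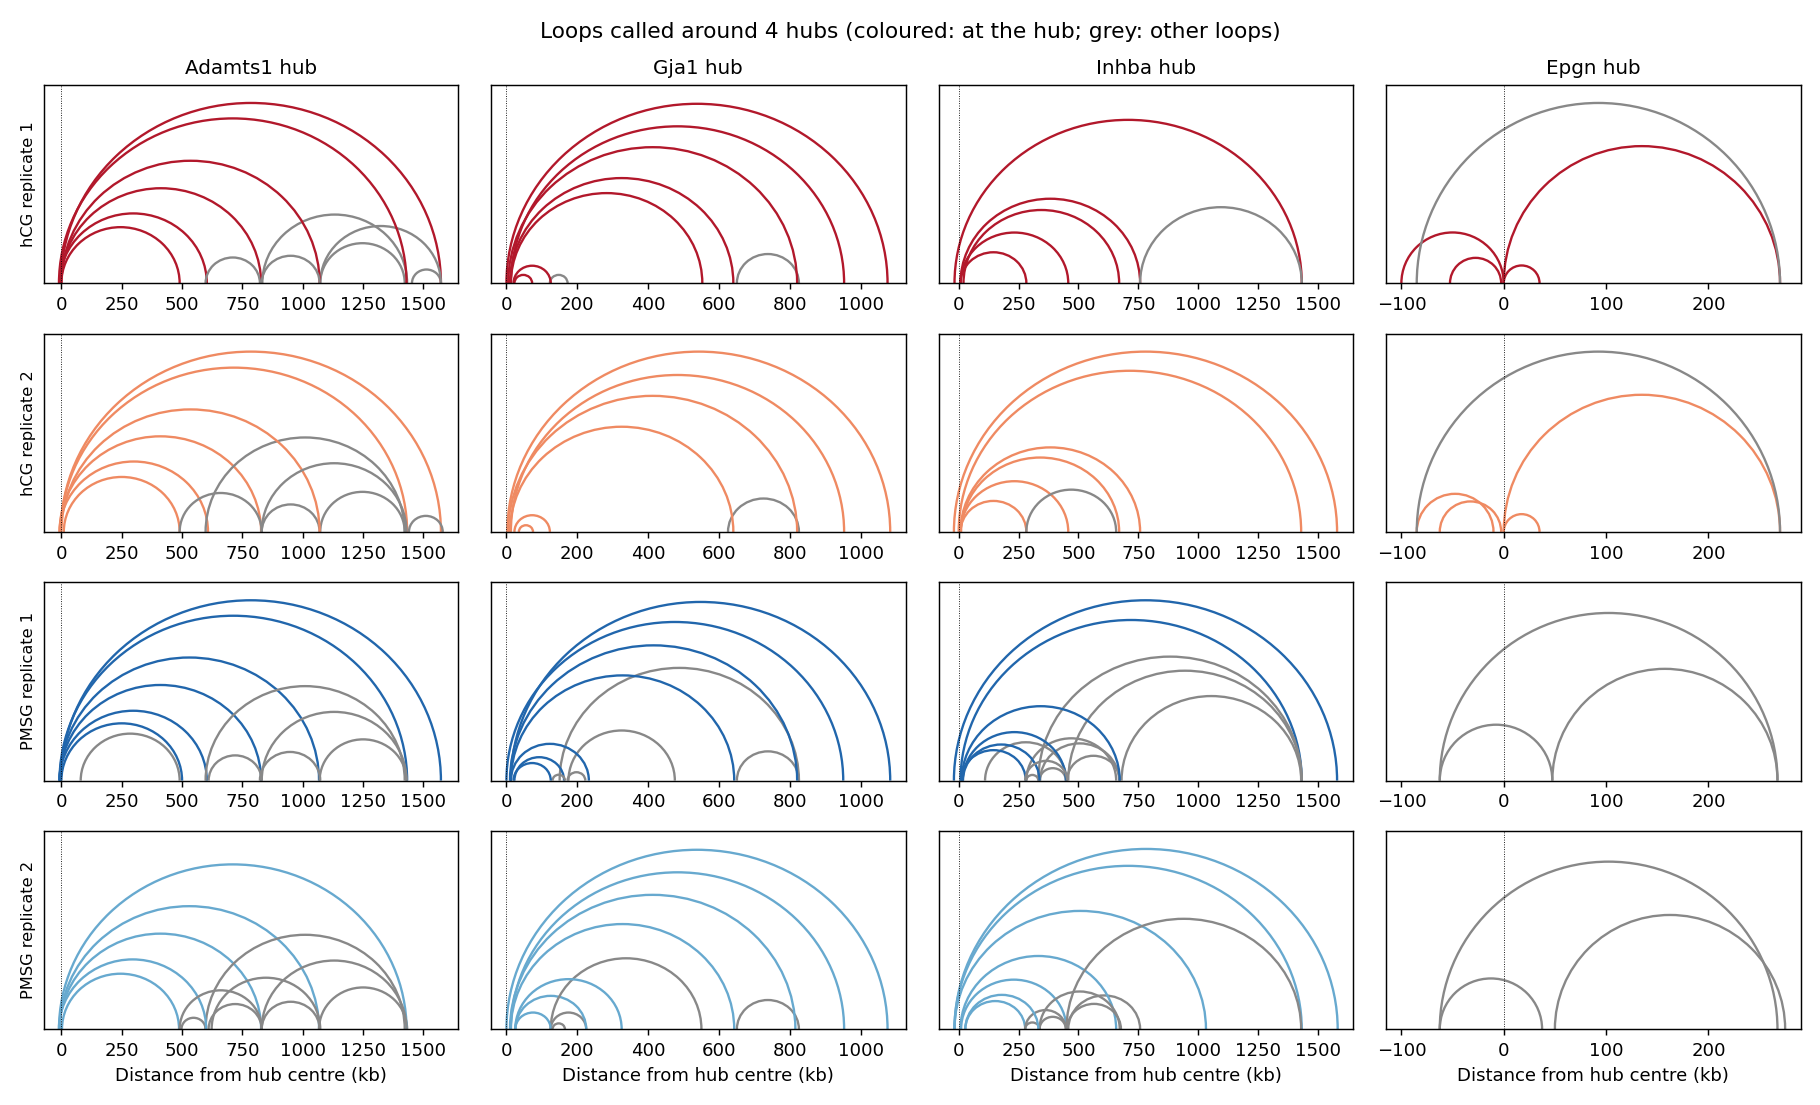
Called loops around the Adamts1, Gja1, Inhba and Epgn hubs, 1 row of panels per library (x axis, distance from the hub centre in kb; arcs join the 2 anchor midpoints, arc height grows with span and carries no contact count); loops with an end outside the window are not drawn. The 5 shared Adamts1 arcs recur in all 4 libraries, grey arcs right of Inhba number 1 in each hCG library and 10 and 7 in the PMSG libraries, and coloured arcs at Epgn occur in the hCG libraries alone.

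Other hubs of all 4 libraries joined gene clusters or gene-poor sites. A hub at the end of a histone gene cluster (chr13:22000001-22075000, with Prss16 and 5 histone genes) had 6 and 9 loops in the hCG libraries, against 7 and 5 in the PMSG libraries. Its partners in all 4 libraries included a site at a median span of 1512.5 kb that holds another part of the histone cluster and is itself a hub locus, with 5 and 4 loops in the hCG libraries, against 7 and 5 in the PMSG libraries. Histone genes are used most in dividing cells, and since many of them are near-identical copies, contacts there may be placed on the wrong copy. The hub at Igfbp2 and Igfbp5 (chr1:72850001-72900000), which encode binding proteins of insulin-like growth factors, had 4 and 6 loops in the hCG libraries, against 7 and 5 in the PMSG libraries. Foxo3, a forkhead factor of follicle growth, had a hub (chr10:42270001-42325000) of 6 and 5 loops in the hCG libraries, against 6 and 4 in the PMSG libraries. Cited2, a transcriptional co-regulator, had a hub (chr10:17710001-17750000) of 6 and 8 loops in the hCG libraries, against 4 and 4 in the PMSG libraries. It was a hub in all 4 libraries and was named after its counts were seen. A hub with no gene end within 100 kb (chr12:39475001-39525000) had 5 and 5 loops in the hCG libraries, against 5 and 6 in the PMSG libraries. Snx10 (6 and 5 loops in hCG, 5 and 5 in PMSG), Lacc1 (5 and 5 in hCG, 5 and 6 in PMSG) and Sub1 (5 and 5 in hCG, 5 and 5 in PMSG) also had hubs.

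Among hubs of both hCG libraries only, the one at Epgn (chr5:91025001-91050000) had the widest margin, shared with a site on chromosome 13. The Epgn hub had 4 and 4 loops in the hCG libraries, against 0 and 0 in the PMSG libraries. In both hCG libraries its loops reached an end of Ereg, which encodes the EGF-like ligand epiregulin, at 35 kb, and sites at median spans of 55, 87.5 and 270 kb. The loop to Ereg had 30 and 23 contacts in the hCG libraries, 5.43 and 4.01 times the expected contacts, and was not called in either PMSG library. The loop of 270 kb had 19 and 19 contacts in the hCG libraries, 6.29 and 5.87 times the expected contacts. In both hCG libraries, the loops of 35 and 270 kb ended in 5 kb bins at the hub centre. That centre lies past the end of Epgn (chr5:91035212), and the bins did not hold its start (chr5:91027517). PMSG libraries were not without loops here: 3 were called in each in the window chr5:90900001-91350000, with none ending at Epgn, against 5 in each hCG library. In each PMSG library, loops joined Ereg, 37.5 to 50 kb from the hub centre, to the sites that Epgn reached at 55 and 270 kb in the hCG libraries. A loop missing from a list was not called there, and the contacts at its pixel were not analysed here.

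A pair of these hubs lay far from genes and contacted a named gene at a distance. The hub chr13:90500001-90530000, with no gene end within 100 kb, had 4 and 4 loops in the hCG libraries, against 0 and 0 in the PMSG libraries. In both hCG libraries it was joined over 770 kb to an anchor at Vcan, the gene of versican, a matrix protein of the ovulating follicle, with 25 and 22 contacts at 5.52 and 4.53 times the expected value. The hub chr10:17400001-17430000 had 4 and 5 loops in the hCG libraries, against 2 and 2 in the PMSG libraries. Its loop to Cited2 over 310 kb was called in all 4 libraries, with 31 and 29 contacts in the hCG libraries, against 32 and 24 in the PMSG libraries, all in 10 kb bins. The ratio to expected contacts was 5.53 and 4.95 in the hCG libraries, against 3.74 and 4.24 in the PMSG libraries. The added loops of that hub spanned 50 and 102.5 kb (medians) and were called in both hCG libraries only.

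Runx1 encodes a transcription factor induced in granulosa cells by the LH signal. A hub inside the gene (chr16:92675001-92725000), away from its ends but at an annotated start of Runx1, had 5 and 5 loops in the hCG libraries. It had 3 and 2 loops in the PMSG libraries. Loops from it to sites at 65, 497.5 and 750 kb (medians) were called in both hCG libraries only. The loop of 497.5 kb had 15 and 16 contacts in 5 kb bins in the hCG libraries, 12.2 and 10.9 times the expected contacts. Loops at 125 and 590 kb were called in all 4 libraries. Plpp3, the gene of a lipid phosphatase, had a hub at its start (chr4:105150001-105175000) with 6 and 5 loops in the hCG libraries, against 2 and 2 in the PMSG libraries. Its loops of 755 and 1075 kb were called in all 4 libraries, and those of 200, 387.5 and 942.5 kb (medians) in both hCG libraries only. The hub at Tanc2 and Cyb561 had 4 and 4 loops in the hCG libraries, against 1 and 1 in the PMSG libraries, and that at Fnbp1l had 5 and 5 loops in the hCG libraries, against 3 and 2 in the PMSG libraries. Rgs2 passed the threshold by little. Its hub (chr1:143990001-144025000) had 5 and 4 loops in the hCG libraries, against 3 and 3 in the PMSG libraries. The loops of Rgs2 to Uchl5 and to Rgs13 were called in all 4 libraries, and of its 6 partner sites 0 were called in both hCG libraries only. The other named hubs of this class, near Larp1 and inside Arhgef28 and Cwc27, each had 4 and 4 loops in the hCG libraries, against 2 and 2 in the PMSG libraries.

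Among hubs of both PMSG libraries only, both with the widest margins lay right of Inhba in sequence with no gene end within 100 kb. The hub chr13:16450001-16475000 had 1 and 1 loops in the hCG libraries, against 6 and 6 in the PMSG libraries. The hub chr13:16325001-16350000 had 0 and 0 loops in the hCG libraries, against 5 and 4 in the PMSG libraries. In both PMSG libraries these 2 hubs were joined to each other over 110 kb, with 32 and 19 contacts, and each was joined to Inhba. The contact of the first hub with Inhba, at a median span of 445 kb, was called in all 4 libraries. It was called in 25 kb bins in both hCG libraries, with 87 and 78 contacts at 3.12 and 2.33 times the expected value. In the PMSG libraries it was called in finer bins, with 15 contacts in 5 kb bins and 30 in 10 kb bins, at 6.38 and 7.50 times the expected value. The ratio falls as the bins grow, so the 2 groups' ratios at this contact are not comparable. The contact of the second hub with Inhba, with 18 and 14 contacts, was called in the PMSG libraries only.

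A comparable pattern was seen beside Gja1. The hub chr10:56475001-56550000, 84.6 kb from Gja1, had 2 and 1 loops in the hCG libraries, against 6 and 4 in the PMSG libraries. Its loop to Gja1 was called in all 4 libraries, with 25 contacts in 5 kb bins and 50 in 10 kb bins in the hCG libraries, against 34 and 20 contacts in 5 kb bins in the PMSG libraries. In the window chr10:56300001-57500000, loops with no end at the Gja1 hub numbered 2 and 1 in the hCG libraries, against 5 and 4 in the PMSG libraries. Most of these PMSG loops ended at the hub chr10:56475001-56550000, so this difference is not independent of the selection. Acvr2a, which encodes an activin receptor, lay with Orc4 at a hub (chr2:48875001-48925000) of 1 and 2 loops in the hCG libraries, against 4 and 5 in the PMSG libraries. Its loop of 880 kb was called in all 4 libraries, and loops of 410, 812.5 and 1100 kb in both PMSG libraries only. The hub at the interferon-induced Ifit1 gene cluster and Slc16a12 had 1 and 1 loops in the hCG libraries, against 5 and 4 in the PMSG libraries. The loop from that hub to Fas, the gene of a death receptor, spanned 300 kb and was the only one of its loops called in the hCG libraries. Commd2 and Ankub1 had 1 and 1 loops in the hCG libraries, against 4 and 4 in the PMSG libraries, and Lysmd4 with Mef2a had 2 and 2 in the hCG libraries, against 5 and 4 in the PMSG libraries. Col1a2, a collagen gene of stroma and theca cells, passed the threshold by little, with 3 and 2 loops in the hCG libraries, against 4 and 4 in the PMSG libraries.

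Genes were placed at a hub when an annotated RefSeq gene end lay within 2.5 kb of the hub interval. Of 9160 genes with an end at any loop anchor, 701 (7.65%) were at a hub locus of any library. Hubs of both hCG libraries only held 37 genes (0.404%), those of both PMSG libraries only 22 (0.24%), and those of all 4 libraries 73 (0.797%). Among granulosa transcription factors, 10 of the 23 with an end at an anchor were at a hub (43.5%). These were Cebpb, Esr2, Foxl2, Foxo1, Foxo3, Gata4, Gata6, Nr5a2, Nrip1 and Sox4, and none was at a hub of 1 group only in both of its libraries. Foxo1, which restrains granulosa cell differentiation under FSH, had 6 and 9 loops in the hCG libraries, against 7 and 3 in the PMSG libraries. Foxl2, the factor that maintains granulosa cell identity, had 4 and 3 loops in the hCG libraries, against 4 and 3 in the PMSG libraries. Cebpb, needed for luteinization, had 5 and 4 loops in the hCG libraries, against 4 and 1 in the PMSG libraries. Nr5a2, a nuclear receptor needed for ovulation, had 4 and 3 loops in the hCG libraries, against 3 and 1 in the PMSG libraries. Gata4, a hub in PMSG replicate 1 only, had 1 and 1 loops in the hCG libraries, against 4 and 2 in the PMSG libraries. Counts for the lists have no test, since the lists were chosen with earlier results of these data known.

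Of 19 ovulatory response genes at anchors, 6 were at a hub (31.6%). Adamts1 was at a hub of all 4 libraries, Epgn and Rgs2 at hubs of both hCG libraries only, and none at a hub of both PMSG libraries only. Pparg, a lipid-sensing nuclear receptor, had 4 and 2 loops in the hCG libraries, against 1 and 1 in the PMSG libraries. Snap25, which encodes a protein of vesicle release, had 4 and 2 loops in the hCG libraries, against 1 and 3 in the PMSG libraries. Of 20 follicular granulosa genes, 8 were at a hub (40.0%), with Gja1 and Inhba in all 4 libraries. Greb1, an oestrogen-responsive gene, had 3 and 5 loops in the hCG libraries, against 6 and 5 in the PMSG libraries. Fst, the gene of the activin-binding protein follistatin, had 4 and 4 loops in the hCG libraries, against 4 and 3 in the PMSG libraries. Insulin-like growth factor genes had 5 of 16 at a hub (31.3%), and TGF-beta family genes 4 of 30 (13.3%).

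The other lists are given by the same counts, beside 7.65% of all genes with an end at an anchor, and no list was tested against another. Of 15 genes of steroid and cholesterol synthesis, 1 was at a hub (Hsd17b1, in PMSG replicate 1 only), and of 9 cumulus matrix genes 1 (Adamts1). None of 11 housekeeping genes and none of 7 genes of the loop machinery was at a hub, and with so few genes a count of 0 lies near the share over all genes. Of 7 EGF-like ligand and receptor genes, 2 were at a hub, Epgn and Egfr. Among markers of other cells that a punctured ovary can release, 3 of 7 theca and stroma genes were at a hub (Pdgfra, Col1a2 and Cyp17a1), and none of 1 endothelial, 2 immune and 3 oocyte genes. Of 6 granulosa markers, Foxl2 and Inhba were at hubs. Loops at a marker gene do not measure its expression, and the cell makeup of the libraries was not tested.

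**Figure D4:**
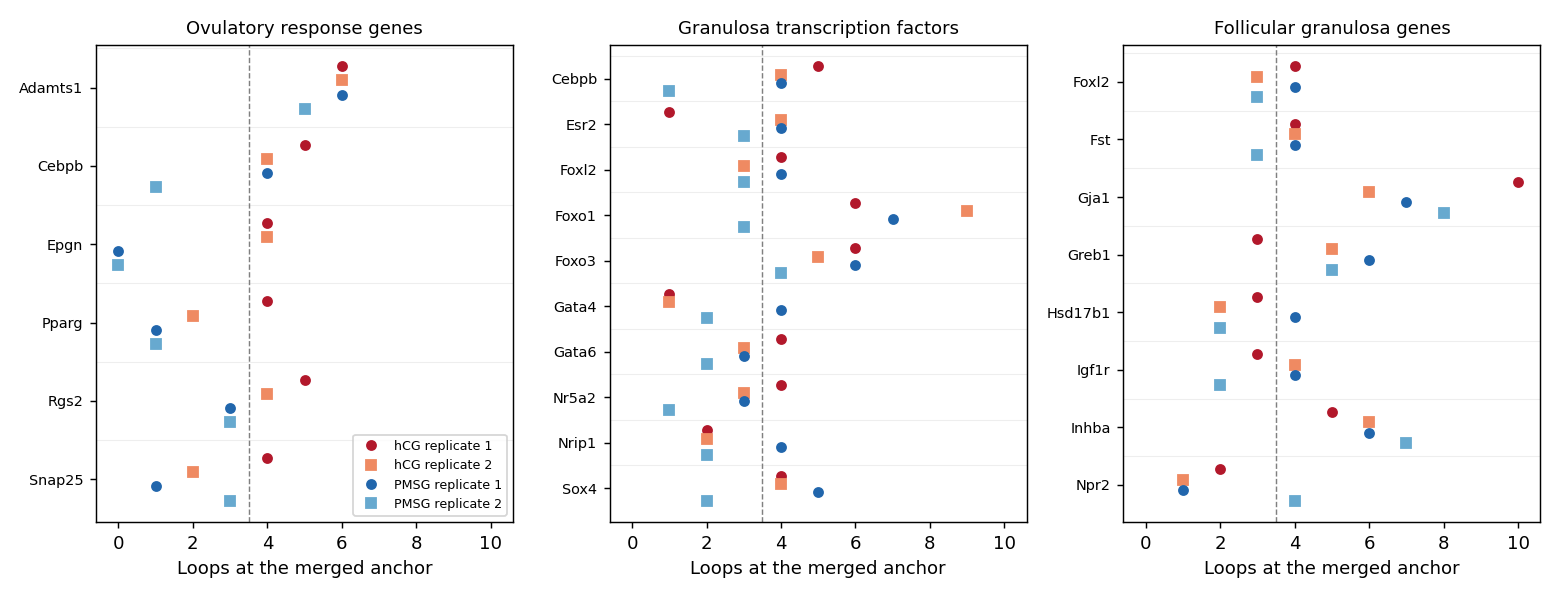
Loops at the merged anchor (x axis, number of loops) in each library for the members of 3 gene lists that lay at a hub locus; the dashed line is the hub threshold. Epgn had 4 loops in each hCG library and 0 in each PMSG library, and Gata4 had 1 and 1 in the hCG libraries, against 4 and 2 in the PMSG libraries.

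Gene ends lay at 403 of the 650 hub loci (62.0%) and gene starts at 273 (42.0%). Starts were known for only 17274 of the 21631 genes, and those of chromosome 18, with 25 hub loci, were not used. The start shares given here may therefore be too low. Another 106 loci lay inside a gene away from its ends and 141 between genes, and 40 had no gene within 100 kb. Hubs of all 4 libraries had a gene start at 26 of 46 loci (56.5%), hubs of both hCG libraries only at 17 of 40 (42.5%) and hubs of both PMSG libraries only at 7 of 23 (30.4%). Wider anchors can hold more gene ends, so the share with a gene end is also given in windows of equal width. Gene starts were not counted in such windows. Hubs held a gene end at 61.0% and 61.2% of anchors in the hCG libraries, against 63.3% and 53.1% in the PMSG libraries. Anchors with 1 loop held one at 37.5% and 36.7% in the hCG libraries, against 35.7% and 34.6% in the PMSG libraries. In windows of equal width (50 kb around the anchor midpoint), the difference shrank in hCG replicate 2 and PMSG replicate 1. It was reversed in hCG replicate 1 and PMSG replicate 2. Hub windows held a gene end at 62.1% and 66.8% in the hCG libraries, against 67.5% and 56.6% in the PMSG libraries. Windows of anchors with 1 loop held one at 62.5% and 62.7% in the hCG libraries, against 62.4% and 59.9% in the PMSG libraries.

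Hub loops were longer than other loops in every library. Hubs were selected on loop number, and whether that rule itself favours longer spans was not tested. The median span of hub loops was 225 and 250 kb in the hCG libraries, against 250 and 310 kb in the PMSG libraries. Other loops had a median of 150 and 150 kb in the hCG libraries, against 170 and 180 kb in the PMSG libraries. The mean difference, hub loops minus other loops, was 96.25 kb over the 4 libraries, positive in 4 of 4 (exact sign-flip permutation test, two-sided, p = 0.125, the smallest this design allows). Between groups, the medians of hub loops averaged 237.5 ± 17.7 kb in hCG and 280 ± 42.4 kb in PMSG (SD, n = 2 each). The difference of -42.5 kb lay within the spread between libraries (exact permutation test, two-sided, p = 0.667, with 0.333 the smallest possible). Loops over 1000 kb made up 3.49% and 4.37% of hub loops in the hCG libraries, against 5.29% and 8.30% in the PMSG libraries. Among other loops they made up 2.38% and 2.51% in the hCG libraries, against 3.10% and 3.35% in the PMSG libraries.

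The ratio of observed to expected contacts was compared within 10 kb bins, since it depends on the bin size. Hub loops had median ratios of 4.12 and 4.10 in the hCG libraries, against 3.59 and 4.63 in the PMSG libraries. Other loops had 3.87 and 3.62 in the hCG libraries, against 3.40 and 4.28 in the PMSG libraries. Hub loops were thus higher by 0.315 on average, in 4 of 4 libraries (exact sign-flip permutation test, two-sided, p = 0.125, the smallest possible). With all bin sizes pooled the mean difference was -0.0356, and hub loops were lower in 3 of 4 libraries (exact sign-flip permutation test, p = 0.625). Hub loops held a larger share of 25 kb calls than other loops, at 34.9% against 28.8% and 30.5% against 27.4% in the hCG libraries, and at 29.4% against 24.3% and 43.0% against 33.9% in the PMSG libraries.

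**Figure D5:**
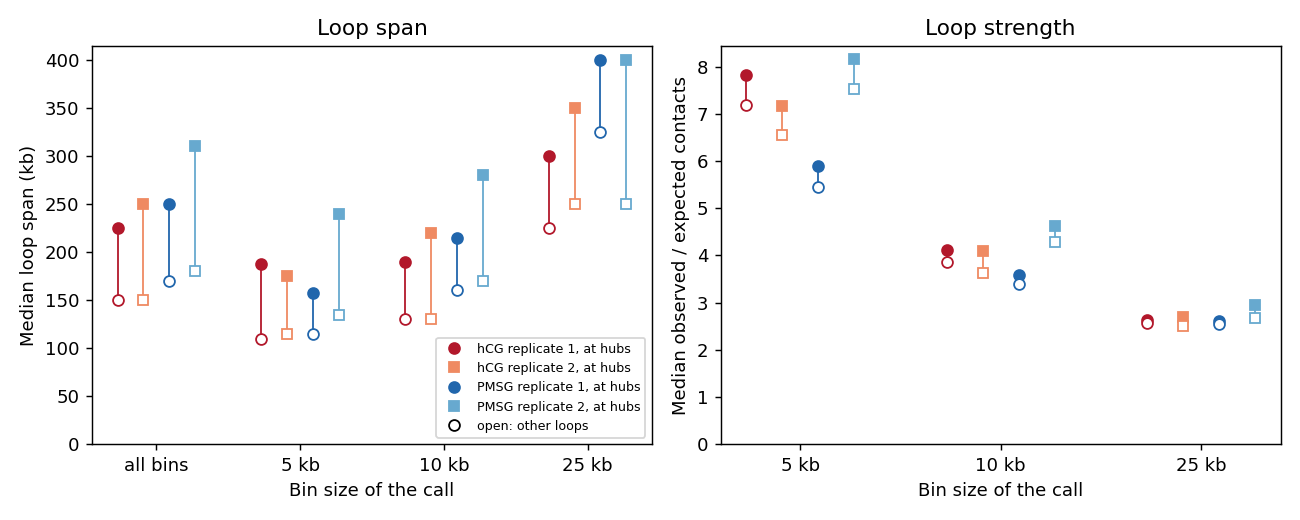
Median span in kb (left) and median ratio of observed to expected contacts (right) of loops at hubs (filled) and other loops (open), by library and by the bin size of the call. Filled symbols lie above open ones in every library and at every bin size, with medians over all bins of 225, 250, 250 and 310 kb at hubs.

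The reach of hubs is given by class, with no test. The median distance from a hub of all 4 libraries to its farthest partner was 777.5 and 835 kb in the hCG libraries, against 815 and 837.5 kb in the PMSG libraries. For hubs of both hCG libraries only, it was 495 and 485 kb in the hCG libraries. For hubs of both PMSG libraries only, it was 675 and 460 kb in the PMSG libraries. All partners lay on one side of 59 of 277 and 66 of 289 hubs in the hCG libraries, against 80 of 335 and 35 of 175 in the PMSG libraries. Hubs joined to another hub were 38.6% and 38.1% in the hCG libraries, against 40.0% and 26.3% in the PMSG libraries. Partner sites were also counted by library. The hub classes were selected on loop number in each library. The shares of partner sites and the group-specific counts given next therefore follow in part from that selection and are descriptions only. Of 300 partner sites of the 46 hubs of all 4 libraries, 153 (51.0%) were called in all 4 libraries. Of 189 partner sites of the 40 hubs of both hCG libraries only, 70 (37.0%) were called in all 4 libraries and 50 in both hCG libraries only. Of 116 partner sites of the 23 hubs of both PMSG libraries only, 37 (31.9%) were called in all 4 libraries and 31 in both PMSG libraries only. A site called in all 4 libraries was present at 37 of the 40 hCG loci and at 21 of the 23 PMSG loci.

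Loop strength could be tested where the same pixel was called in all 4 lists, which held for 435 pixels, 101 of them at hub loci. Observed counts were tested with the expected contacts as an offset in edgeR's quasi-likelihood test with Benjamini-Hochberg adjustment over all 435 pixels. None was called at an adjusted p of 0.05 (0%), and the lowest adjusted p at a hub was 0.553. At an unadjusted p of 0.05, 29 pixels passed in edgeR, 26 of them higher in hCG and 3 lower. Of the 29, 5 were at hubs, all higher in hCG. DESeq2 called 0 with 1 pixel passing unadjusted. The log2 ratio was above 0 at 299 of all 435 pixels and at 57 of the 101 hub pixels. The median log2 ratio of hCG over PMSG was 0.04 at the hub pixels and 0.12 over all 435 pixels. At the hub of the keratin genes Krt78 and Krt8, present in all 4 libraries, the shared pixel had 39 and 59 contacts in the hCG libraries, against 59 and 30 in the PMSG libraries. These were 15.4 and 19.2 times the expected contacts in the hCG libraries, against 11.3 and 13.6 times in the PMSG libraries, a log2 difference of 0.55 (edgeR, adjusted p = 0.553). The pixels had to be called in every list, so loops found in 1 group only are not among them.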

How the data were processed

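The 4 Micro-C libraries (2 hCG and 2 PMSG by title) were made with a Dovetail kit. Each pooled 2 to 3 technical replicates, per the labels' protocols, which cannot be separated here. BWA and Juicer with mm10 are named in the submitters' processing notes, and the lists were written by juicer_tools 1.22.01, per the file headers. Each deposited list holds merged loop calls in bins of 5, 10 and 25 kb, called per library. For each loop's pixel the authors' lists give an observed contact count (whole numbers, not normalized), the expected contact signal from 4 neighbourhoods, of which the donut was used here, FDR q-values, which were at most 0.1, and a score, the number of collapsed pixels, which was not used, all per the file headers. Contacts can include PCR copies, and pixels of few contacts carry a large counting error.

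From these, anchors were merged within 10 kb and hubs were called at 4 or more loops. The value of a locus in a library is the largest loop count of its merged anchors there. Span is the distance between anchor midpoints. Partner bins within 10 kb of each other formed 1 partner site. Gene positions came from RefSeq (GRCm38.p6, the same assembly as mm10), with 21631 protein-coding genes, 17274 of them with a start in the promoter table. Positions are counted from 1. The members and the 16 gene lists (271 genes, all in the RefSeq table) were chosen with earlier results of these data known.

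Named hubs were the 12 in all 4 libraries with the highest lowest count, the 10 of each group with the widest margin over the other group, and hubs of list genes. Cited2, the second histone hub and the Krt8 hub were named after their values were seen. Tests used R 4.3.3 with edgeR 4.0.16 (donut expectation as offset, threshold 0.05) and DESeq2 1.42.0, and exact permutation tests over libraries in numpy 2.4.6. The strength test was also run on simulated counts, with an outcome not given here. Alternatives were other merge distances, a threshold of 5 loops, distinct partners, a stricter FDR, equal list lengths, no 25 kb bins, matching by overlap and leaving out each library. Replicate numbers were not used as pairs in the main test: the deviations of same-numbered libraries from their group means had r = -0.0157 over the 435 pixels. With 2 libraries a group, this cannot exclude that same-numbered libraries were prepared together. Anchor sequences were not searched for CTCF motifs, since no genome sequence was used here.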

Additional observations from a re-analysis of the deposited data

How the results depend on the processing

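Hub counts moved with the merging, the threshold, the FDR, the list length and the bins. Merging only overlapping or touching anchors gave 22 hub loci in all 4 libraries, against 46 as reported. A threshold of 5 loops gave 190 loci in any library, 10 in all 4, 10 in both hCG libraries only and 3 in both PMSG libraries only. Keeping loops with an FDR of at most 0.01 gave 399 loci in any library, 12 in all 4, 16 in both hCG libraries only and 16 in both PMSG libraries only, against 40 and 23 as reported for the last 2. Lists of equal length gave 22 in all 4. Without 25 kb bins the counts were 221 in any, 4 in all 4, 10 in both hCG libraries only and 4 in both PMSG libraries only. Allowing at most 2 loops in the other group left 10 hubs of both hCG libraries only and 8 of both PMSG libraries only. Leaving out 1 library at a time, loci in any library ranged from 502 to 602, in all remaining libraries from 59 to 80, in hCG only from 55 to 142 and in PMSG only from 36 to 172, since fewer libraries then define a class. The high values came without hCG replicate 1 (142) and without PMSG replicate 2 (172). Merging within 20 kb (788 in any library), distinct partners (585) and matching by overlap kept every class within 1.5 times of its reported count.

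The 39 hubs followed under these alternatives were the named hubs and the list-gene hubs of all 4, both hCG only or both PMSG only libraries. Of these, Gja1 and Adamts1 kept their class under all 8 of these alternatives, and none of the group-specific ones did. The 12 named hubs of all 4 libraries were chosen for a high lowest count. Many group-specific hubs had only 4 loops in 1 of their libraries, so this contrast follows in part from the selection. The Epgn hub was lost at 5 loops, at an FDR of 0.01 and without 25 kb bins, the Runx1 hub without 25 kb bins only, the hub chr13:16325001-16350000 at 5 loops only, and the hub chr13:16450001-16475000 at an FDR of 0.01 and with lists of equal length. The Inhba hub was lost at an FDR of 0.01 and without 25 kb bins. Hub loops stayed longer than other loops (71.25 to 151.25 kb) under the alternatives given for them. Within bins of 1 size they also stayed higher in their ratio to expected contacts (0.154 to 0.581), though not with bin sizes pooled (-0.0356). The span difference between groups stayed negative (-75 to -12.5 kb). These ranges leave out merging within 20 kb and lists without 25 kb bins, whose spans and ratios are not given here. The strength test called 0 pixels with the replicate block (17 at an unadjusted p of 0.05), and 0 to 2 with 1 library left out, none of them at a hub; the lone library of a group is then assumed to vary like the other group. It called 0 with the bottom left expectation and with a mean count of at least 20. The causes of these shifts were not tested. With 2 libraries a group, depth and list length cannot be told apart from the library.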

Other observations

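A list of developmental transcription factors held mostly homeobox, SOX, T-box and forkhead genes. Of its 39 genes with an end at an anchor, 11 were at a hub locus (28.2%), against 7.65% of all genes with an end at an anchor, with no test. Of these 11 genes, 1 (Hoxd13) was at a hub of all 4 libraries, 1 (Pax3) at a hub of both hCG libraries only, none at a hub of both PMSG libraries only, 2 (Tbx2 and Tfap2a) at a hub of 1 library and 7 at hubs of other sets of libraries. The HoxD cluster, which patterns limbs and the genital tract, had a hub (chr2:74650001-74725000) of 4 and 5 loops in the hCG libraries, against 7 and 5 in the PMSG libraries. Its loop of about 875 kb ended at another hub, inside Gm50595, with 5 and 7 loops in the hCG libraries, against 7 and 4 in the PMSG libraries. The predicted gene Gm38821 had a hub (chr6:51150001-51225000) of 6 and 7 loops in the hCG libraries, against 8 and 5 in the PMSG libraries. It was joined in all 4 libraries to the Snx10 hub over 375 kb and to the HoxA cluster over 1037.5 kb (median). The Snx10 hub was itself joined to the HoxA cluster over 625 kb in all 4 libraries. The hub at Pax3 had 4 and 4 loops in the hCG libraries, against 3 and 3 in the PMSG libraries.

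Irs1, an adaptor of insulin and insulin-like growth factor receptors, had a hub (chr1:82275001-82300000) of 5 and 4 loops in the hCG libraries, against 5 and 5 in the PMSG libraries. All its partners lay on one side, and the farthest, at 975 or 980 kb, was called in 5 kb bins in all 4 libraries, with 18 and 21 contacts in the hCG libraries, against 21 and 17 in the PMSG libraries. Pdgfra, a receptor gene of stromal and theca cells, had a hub (chr5:75125001-75175000) of 5 and 6 loops in the hCG libraries, against 6 and 4 in the PMSG libraries. Its loop of 840 to 855 kb ended at the hub inside Scfd2, which had 5 and 6 loops in the hCG libraries, against 6 and 5 in the PMSG libraries. By chromosome, hub loci were 8.70% of anchor loci on chromosome 13, which holds Inhba and the histone cluster, and 1.55% on chromosome X.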
